A study of Mus musculus with 6 samples.

Results

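Genes of the glucocorticoid pathway were described in LSK cells, a sorted fraction of mouse bone marrow (no lineage markers, Sca-1 and c-Kit present) that includes haematopoietic stem cells and multipotent progenitors. The 9 genes, of 23420 in the deposited tables, were taken by their symbols: the receptor Nr3c1, the activating enzyme Hsd11b1, and 7 common target genes, Klf9, Fkbp5, Tsc22d3, Per1, Ddit4, Sgk1 and Zbtb16. RNA-seq libraries came from 3 bcat(ex3)osb mice, called mutant mice below, with constitutively active β-catenin signalling in their osteoblasts, and from 3 wild-type (WT) littermates, 1 library per mouse. Not given in the sources used here are the promoter that restricts the allele to osteoblasts, the strain and age of the mice, any treatment and the hour at which marrow was taken. The labels place the active signalling in osteoblasts, while the cells sequenced were blood progenitors of the same marrow. The set was chosen by gene name with the mutant-over-WT fold changes and p-values of these libraries already known (Klf9 stood among the genes with the smallest p-values), so the genotype difference is given for the 9 genes as a description, without a test of its own.

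Glucocorticoids are steroid hormones of the adrenal gland, corticosterone being the main one in mice. Inside the cell they bind the receptor NR3C1, which is held in a ligand-ready state by HSP90 and its co-chaperones, then enters the nucleus and binds response elements near its target genes. In bone marrow the hormone shapes the output of lymphoid and myeloid cells and acts on the bone-forming cells themselves.

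Total counts ranged from 15431235 to 19956774 per library. On the first principal component (50.8% of the variance) mutant mouse 2 lay far from the other 5 libraries. Some results are also given without it, but the marker sums and the group means of genes outside the 9 are given only with it. Sex, read from Xist and Y-linked genes, was male for mutant mice 1 and 2 and female for the other 4 mice, so that sex and genotype overlap in part. All 10 listed LSK markers were detected in both genotypes, and their summed level was 3326 to 4107 CPM (counts scaled to a common library size by TMM) in mutant mice and 3341 to 5100 CPM in WT mice. Among them Ly6a, which encodes Sca-1, was at 65.9 to 81.5 CPM in mutant mice and 148 to 162 CPM in WT mice. By gene, 9 of the 10 had a negative and 1 a positive log2 fold change (mutant over WT), with a median of -0.37. Of all 12653 genes that passed the filter on low counts, 6290 were negative and 6363 positive. Every mutant value was below every WT value for 2 of the 10, Ly6a and Procr, beside 7.67% of all genes. Procr, a stem cell surface receptor, was at 21.1 to 28.83 CPM in mutant mice and 28.89 to 44.2 CPM in WT mice, so its groups nearly touched.

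The promoter windows of the targets were read for letters that match known elements, because the receptor is known to bind a palindromic response element. Windows taken from RefSeq, on assembly GRCm38.p6 (mm10), numbered 15 for 7 of the 9 genes. They were unevenly spread: 6 of Sgk1, 3 of Tsc22d3, 2 of Per1 and 1 each of Hsd11b1, Klf9, Fkbp5 and Ddit4. Windows of Nr3c1 and Zbtb16 were not analysed here. In the 250 bases before each start site, both strands were searched for the response element (AGAACA, any 3 bases, TGTTC), for ACANNNTGT (its core, which the full element contains), CACGTG (the E-box bound by the clock proteins), TGACGT (part of the cAMP response element) and GGGCGG (the GC box). Shown are the only member window with the full response element, the 2 with the cAMP element and the Fkbp5 window with an E-box, each read along the gene's strand, with capitals marking the response element (Sgk1), the cAMP element (Klf9 and Per1) or the E-box (Fkbp5), and other letters, GC boxes included, in lower case.
Sgk1, chr10:21993660-21993719, plus strand: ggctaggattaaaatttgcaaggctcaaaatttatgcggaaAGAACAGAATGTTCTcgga
Klf9, chr19:23141076-23141225, plus strand: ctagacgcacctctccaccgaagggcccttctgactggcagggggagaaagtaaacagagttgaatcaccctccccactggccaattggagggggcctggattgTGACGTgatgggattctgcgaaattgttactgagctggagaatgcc
Per1, chr11:69099972-69100101, plus strand: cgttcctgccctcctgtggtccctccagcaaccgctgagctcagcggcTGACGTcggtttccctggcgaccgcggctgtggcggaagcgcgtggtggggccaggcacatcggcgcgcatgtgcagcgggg
Fkbp5, chr17:28486220-28486369, minus strand: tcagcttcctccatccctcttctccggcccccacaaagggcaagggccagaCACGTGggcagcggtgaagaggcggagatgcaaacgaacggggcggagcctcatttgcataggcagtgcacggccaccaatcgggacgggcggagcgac

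The full response element was in 1 of the 15 member windows, that of an Sgk1 start site, and in 0.0304% of the 32851 windows of all genes. The 15-base Sgk1 match, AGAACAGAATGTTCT, starts 189 bases before that start site and 965 bases before the most downstream listed Sgk1 start site. Its outer letters form an inverted repeat, so it matches on both strands. The core ACANNNTGT was found in 2 member windows, both of Sgk1, and in 5.84% of all windows. E-boxes were found in 1 window each of Per1, Fkbp5 and Sgk1 and in 6.02% of all windows, and the cAMP element in 1 window each of Klf9 and Per1 and in 6.47% of all windows. The GC box was in 8 member windows, of 5 genes, and in 32.7% of all windows. Elements outside these windows were not searched.

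Per kilobase of gene length, the 9 genes spanned a wide range of levels with a similar order in both genotypes (deposited FPKM, counts scaled by gene length and library total). Tsc22d3, which encodes the anti-inflammatory leucine zipper protein GILZ, was the most abundant, at 174 ± 37.0 FPKM in mutant mice and 108 ± 25.4 FPKM in WT mice (n = 3 each, SD), above 94.4% of the genes tested. Fkbp5 came next, with 85.1 ± 30.6 FPKM in mutant mice and 40.3 ± 14.4 FPKM in WT mice. Zbtb16 was the least abundant, with 1.56 ± 0.329 FPKM in mutant mice and 0.463 ± 0.294 FPKM in WT mice. Within the WT mice the ranges of Sgk1, Klf9 and Per1, the fifth to the seventh in order, overlapped from one to the next, as did those of Hsd11b1 and Zbtb16, while every other pair of neighbours in that order was separate. In mutant mice Sgk1 stood lower in the order, behind Klf9, Per1 and Hsd11b1, and Ddit4 stood ahead of Nr3c1 with overlapping ranges. The receptor itself was at 17.2 ± 2.35 FPKM in mutant mice and 16.8 ± 0.888 FPKM in WT mice.

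**Figure D1:**
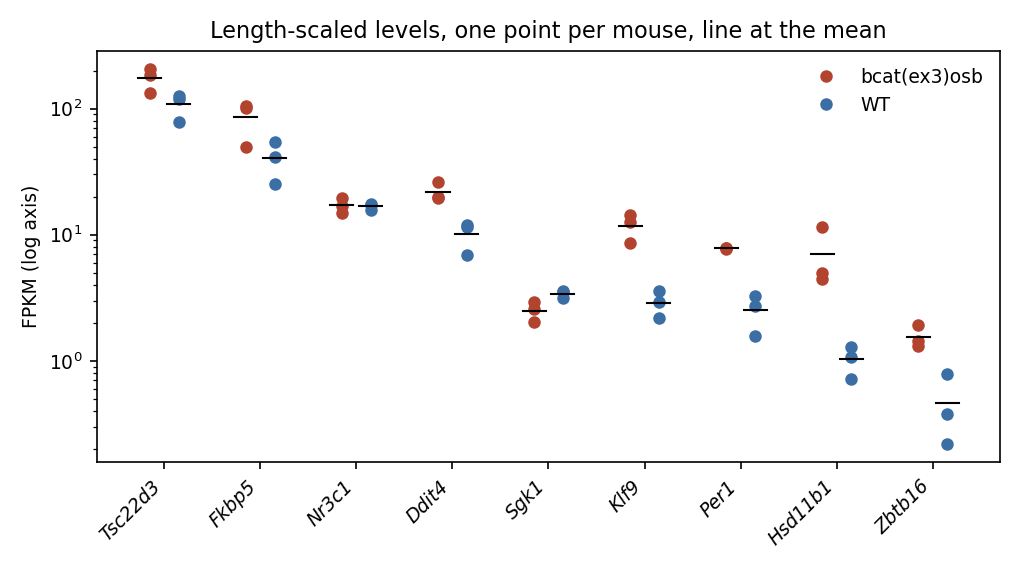
Deposited FPKM (log axis) of the 9 genes in each of 3 bcat(ex3)osb and 3 WT mice, with a line at each group's mean, ordered by the WT mean. Tsc22d3 and Fkbp5 lie highest and Zbtb16 lowest in both genotypes, and the points of Nr3c1 overlap between them.

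Between genotypes, transcripts of 7 of the 9 genes were higher in every mutant mouse than in every WT mouse: Hsd11b1, Klf9, Zbtb16, Per1, Ddit4, Fkbp5 and Tsc22d3. The groups overlapped for Nr3c1 and Sgk1. All 9 genes passed the filter on low counts. Over all 12653 genes tested, 6.89% had every mutant value above every WT value and 7.67% every mutant value below. The median log2 fold change (mutant over WT) was 1.18 over the 9 genes and 0.0022 over all genes tested, and 6 of the 9 exceeded 1, as did 3.41% of all genes. By edgeR's quasi-likelihood test with Benjamini-Hochberg adjustment over all genes, 0 of the 9 genes and 0.00% of all genes passed an adjusted p of 0.05 in either direction. The adjusted p of the 9 genes ran from 0.292 for Klf9 to 0.937 for Nr3c1. At an unadjusted p under 0.05 the test had 7 of the 9 genes higher, beside 3.43% of all genes higher and 3.13% lower, and limma-voom called 0 genes. DESeq2 called 0.778% of its tested genes higher and 0.565% lower, and among those higher were Klf9, Hsd11b1, Per1, Ddit4 and Zbtb16. With the mouse number as a term, edgeR called 0.0395% of genes higher, Klf9 among them. Since the genes were chosen with this contrast known, these counts describe them and nothing is read from them.

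**Figure D2:**
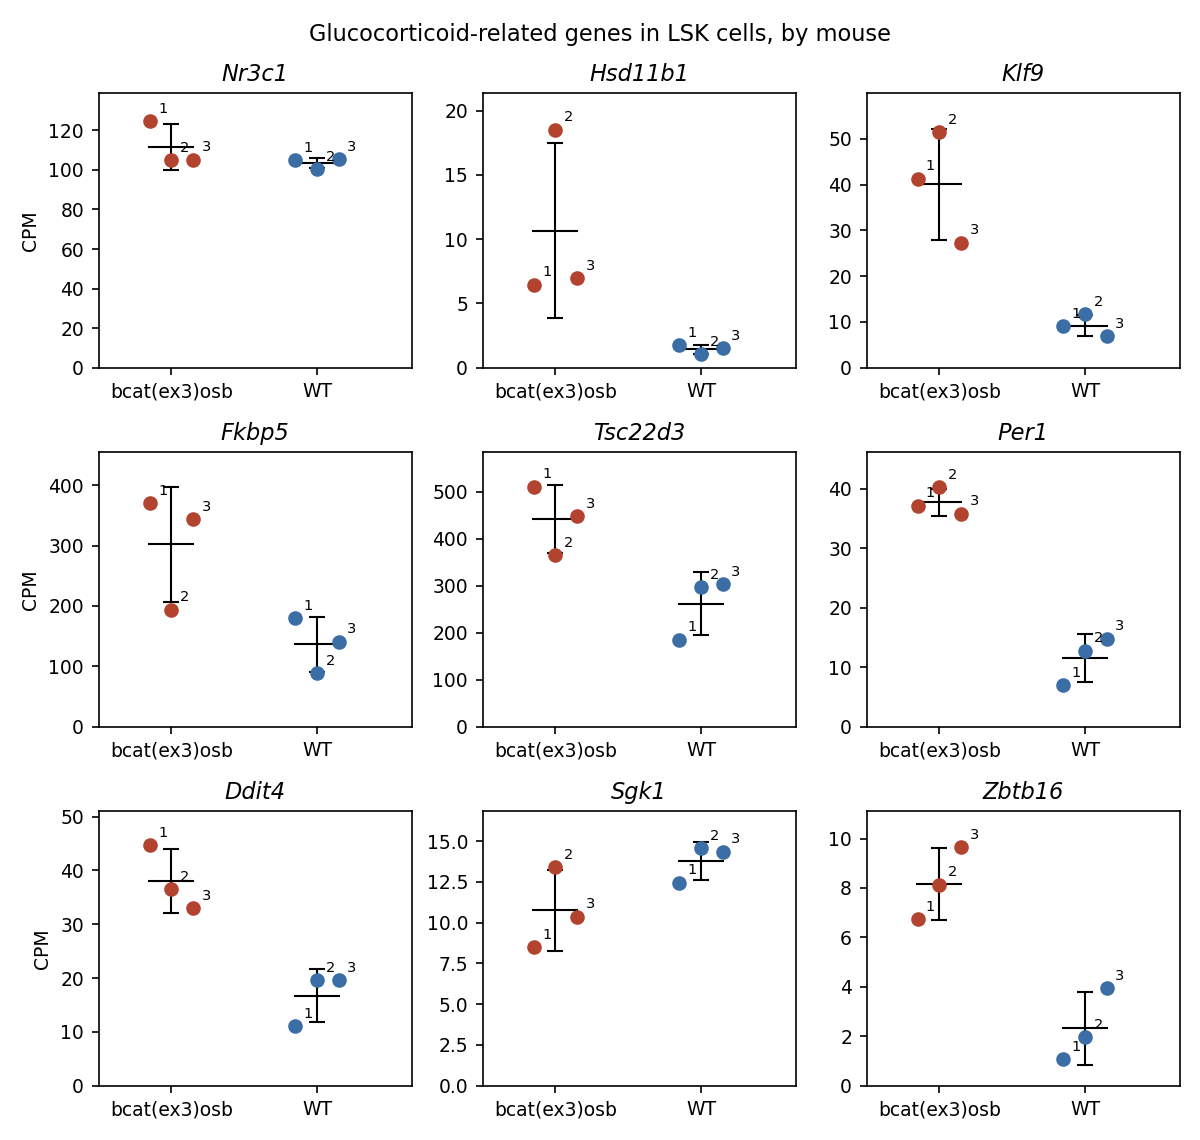
CPM of each gene in the 3 bcat(ex3)osb mice (left) and the 3 WT mice (right), numbered by mouse, with bars at the mean ± SD. The groups are separate for Hsd11b1, Klf9, Fkbp5, Tsc22d3, Per1, Ddit4 and Zbtb16 and overlap for Nr3c1 and Sgk1.

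The receptor gene Nr3c1, on chromosome 18, was at nearly the same level in the 6 mice. It was at 125, 105 and 105 CPM in mutant mice 1 to 3, against 105, 100.4 and 105 CPM in WT mice 1 to 3. Mutant mouse 1 was the highest of the 6, and the other 5 lay within a few CPM of each other. The log2 fold change was 0.11 ± 0.17 (SE). In bulk RNA a change in the mix of cells and a change in the RNA per cell cannot be told apart, for this gene and all others here.

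Hsd11b1 (chromosome 1, 193221640 to 193264045) encodes the reductase that regenerates active hormone from its inert keto form inside cells. It was at 6.46, 18.5 and 6.99 CPM in mutant mice 1 to 3, against 1.75, 1.04 and 1.51 CPM in WT mice 1 to 3. The lowest mutant value was 3.70 times the highest WT value, and mutant mouse 2 stood well above the other mutant mice. These values rest on 120 to 287 counts in mutant mice and 16 to 36 counts in WT mice. The log2 fold change, 2.88 ± 0.55 (SE), was the largest of the 9 genes. It was 2.22 without mutant mouse 2.

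Klf9 (chromosome 19, 23141226 to 23168129) encodes a zinc-finger transcription factor that glucocorticoids induce directly in many tissues. It was at 41.3, 51.5 and 27.3 CPM in mutant mice 1 to 3, against 9.07, 11.6 and 6.91 CPM in WT mice 1 to 3. Even the lowest mutant mouse was 2.35 times the highest WT mouse. The fold change on the log2 scale was 2.12 ± 0.32 (SE), and 1.90 without mutant mouse 2. Klf9 was the fifth of all genes in order of p. In the 4 female mice the log2 fold change was 1.55 ± 0.38.

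Fkbp5 and Tsc22d3, the most abundant targets, had the narrowest gaps between the genotypes among the 7 genes with separate groups. Fkbp5 (chromosome 17, 28398753 to 28486149) encodes a co-chaperone that lowers the affinity of the receptor for hormone and so acts as feedback. It was at 370.0, 194 and 344 CPM in mutant mice 1 to 3, against 180, 89.0 and 141 CPM in WT mice 1 to 3. Mutant mouse 2 was only 1.08 times the highest WT mouse. On the log2 scale the fold change was 1.15 ± 0.33 (SE), and 1.39 without mutant mouse 2.

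Tsc22d3 (chromosome X, 140539528 to 140600522) was at 511, 366 and 448 CPM in mutant mice 1 to 3, against 185, 297 and 304 CPM in WT mice 1 to 3. Mutant mouse 2 was again the lowest mutant mouse, at 1.20 times the highest WT mouse. Tsc22d3 had a log2 fold change of 0.75 ± 0.25 (SE). Set against the receptor within the same library, Tsc22d3 had 8.88 to 10.8 times the FPKM of Nr3c1 in mutant mice and 4.50 to 7.52 times in WT mice. Fkbp5 had 3.34 to 5.91 times the FPKM of Nr3c1 in mutant mice and 1.60 to 3.09 times in WT mice, ranges that did not overlap.

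Per1 and Ddit4 had separate groups with little spread among the mutant mice. Per1 (chromosome 11, 69095108 to 69109965) encodes a repressor of the circadian clock and is induced acutely by glucocorticoids. It was at 37.1, 40.3 and 35.8 CPM in mutant mice 1 to 3, against 6.98, 12.8 and 14.8 CPM in WT mice 1 to 3. The mutant mice lay close together, and the highest WT mouse lay well below them. Per1 had a log2 fold change of 1.71 ± 0.31 (SE).

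Ddit4 (chromosome 10, 59949675 to 59951770) encodes REDD1, an inhibitor of mTOR signalling that glucocorticoids, hypoxia and other stresses induce. It was at 44.6, 36.5 and 33.0 CPM in mutant mice 1 to 3, against 11.0, 19.6 and 19.7 CPM in WT mice 1 to 3. The lowest mutant mouse was at 1.68 times the highest WT mouse. Its log2 fold change was 1.18 ± 0.29 (SE).

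Zbtb16 (chromosome 9, 48651797 to 48836225) encodes the transcriptional repressor PLZF, which is made in haematopoietic progenitors and innate-like lymphocytes. It was at 6.73, 8.13 and 9.65 CPM in mutant mice 1 to 3, against 1.07, 1.95 and 3.94 CPM in WT mice 1 to 3. The groups were separate, though the WT values rest on 22, 30 and 81 counts and spread more widely on the log scale than the mutant values did. Its log2 fold change was 1.81 ± 0.53 (SE), and 0.82 on the log2(FPKM + 1) scale, which understates changes of low genes. Leaving out each mouse in turn gave 1.46 (without WT mouse 1) to 2.44 (without WT mouse 3). Markers of T cells, the class that includes some Zbtb16-expressing lymphocytes, summed to 7.87 to 20.6 CPM over the 5 markers measured in mutant mice and 16.1 to 24.5 CPM in WT mice. Only 2 of these markers passed the filter on low counts, and the part of lymphocytes in the Zbtb16 values was not tested.

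Sgk1 (chromosome 10, 21882184 to 21999903), the gene with the full response element printed above, encodes a serine/threonine kinase of ion transport and survival. It was the 1 gene of the 9 with a negative value. It was at 8.51, 13.4 and 10.4 CPM in mutant mice 1 to 3, against 12.5, 14.6 and 14.3 CPM in WT mice 1 to 3. Mutant mouse 2 lay within the WT range, and mutant mice 1 and 3 lay below it. The log2 fold change was -0.36 ± 0.29 (SE).

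**Figure D3:**
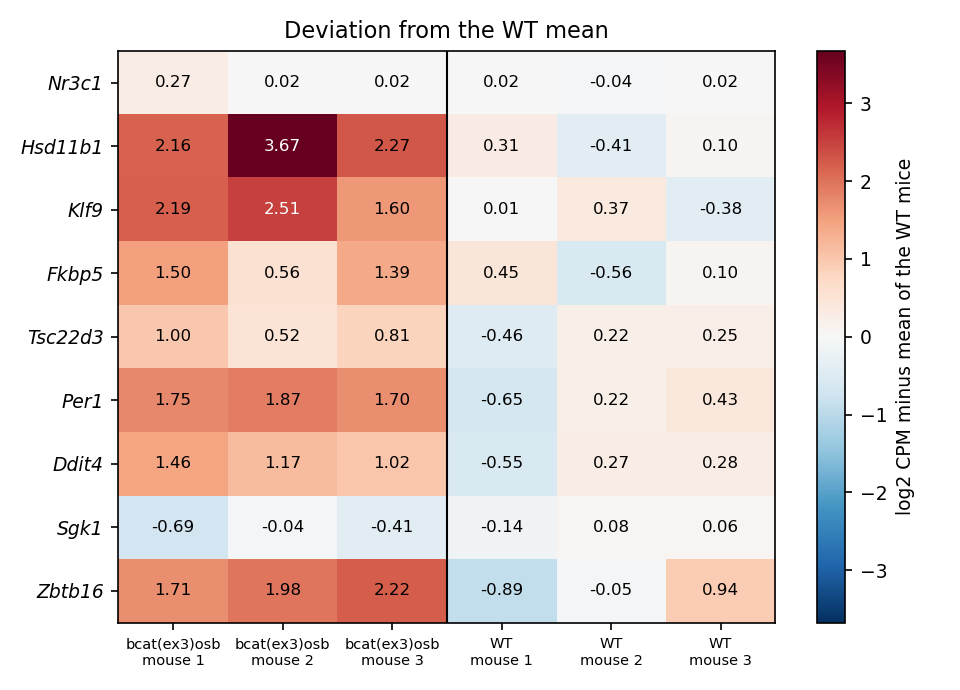
log2 CPM of each gene in each mouse minus the mean of the 3 WT mice, with bcat(ex3)osb mice on the left and WT mice on the right. The 7 genes with separate groups are positive in all 3 bcat(ex3)osb mice, from 0.52 for Tsc22d3 in mouse 2 to 3.67 for Hsd11b1 in mouse 2, and Sgk1 is negative in all 3.

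The 7 genes did not vary in the same way among mice of 1 genotype. In mutant mice, Hsd11b1, Klf9 and Per1 were highest in mouse 2, Fkbp5, Tsc22d3 and Ddit4 were highest in mouse 1, and Zbtb16 was highest in mouse 3. Among WT mice, mouse 1 had the lowest Tsc22d3, Per1, Ddit4 and Zbtb16 but the highest Fkbp5 and Hsd11b1. The median deviation of the 9 genes from the WT mean was 1.5, 1.17 and 1.39 log2 units in mutant mice 1 to 3, against -0.14, 0.08 and 0.10 in WT mice 1 to 3. The same median over all genes tested lay between -0.03 and 0.02 in each of the 6 mice. Without mutant mouse 2, the same 7 genes had every mutant value above every WT value, beside 11.6% of all genes, and Sgk1 then lay below, beside 11.6% of all genes. In female mice alone, which leaves mutant mouse 3 against 3 WT mice, the 7 genes were again above, beside 23.8% of all genes. Sgk1 was again below, beside 22.2% of all genes, and the median log2 fold change of the 9 was 1.31.

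**Figure D4:**
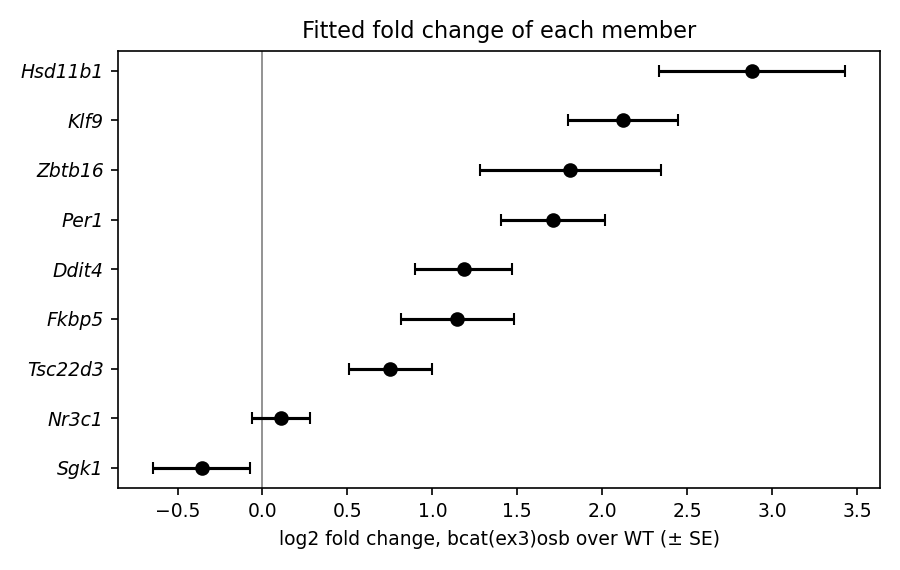
Fitted log2 fold change, bcat(ex3)osb over WT, of each gene with its standard error from the fit over all genes. Values run from -0.36 for Sgk1 to 2.88 for Hsd11b1, and the bar of Nr3c1 crosses 0.

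Genes of the machinery around the receptor had small differences of both signs. Of 12 receptor chaperones, 4 had a positive and 8 a negative log2 fold change, the median being -0.10, and 0 passed the adjusted threshold in either direction. Fkbp4, a co-chaperone that helps the receptor reach the nucleus, was at 478 ± 19.1 CPM in mutant mice and 569 ± 67.5 CPM in the WT mice (n = 3 each, SD), with overlapping groups. Of 15 receptor coregulators, 5 were positive and 10 negative, with a median of -0.10 and 0 past the threshold. Every mutant value was above every WT value for 2 of the 15, beside 6.89% of all genes, and below for 2, beside 7.67%. Smarca4, a chromatin remodelling ATPase, averaged 300 ± 26.8 CPM in mutant mice and 395 ± 56.4 CPM in WT mice, with separate groups.

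Of 11 genes of steroid supply and export, 6 passed the filter on low counts, 3 positive and 3 negative, with a median of -0.09 and 0 past the threshold. Abcb1a, an efflux pump that exports corticosteroids, was at 0, 0 and 0.554 CPM in mutant mice 1 to 3, against 1.79, 0.715 and 1.56 CPM in WT mice 1 to 3. Its close relative Abcb1b, which was far more abundant in these cells, was at 29.9 ± 5.88 CPM in mutant mice and 36.7 ± 5.64 CPM in WT mice. Reads shared by these relatives may have been divided by the counting, whose rule was not stated. Cyp11a1, which starts steroid synthesis from cholesterol, was at 2.53, 6.0 and 26.4 CPM in mutant mice 1 to 3, against 3.40, 4.55 and 4.04 CPM in WT mice 1 to 3, so that mutant mouse 3 alone stood high.

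Among 38 further genes that glucocorticoids induce in one tissue or another, 31 passed the filter, of which 23 had a positive and 8 a negative log2 fold change. Their median was 0.48, against 0.0022 over all genes, and 0 passed the adjusted threshold in either direction. All mutant values were above all WT values for 8 of the 31, or 25.8%, beside 6.89% of all genes, and below for 1, or 3.23%, beside 7.67% of all genes. The gene below was Sesn1, a stress-induced inhibitor of mTOR signalling. Like the other gene lists here, this list was chosen with earlier results of these data known. Its shares beside those of all genes therefore describe the list, and nothing is read from them. In the female mice 14 of the 31 (45.2%) were above, beside 23.8% of all genes, and 4 (12.9%) below, beside 22.2% of all genes. Cebpd, a transcription factor of granulocytic cells and of acute-phase responses, averaged 40.3 ± 10.1 CPM in mutant mice and 12.7 ± 4.0 CPM in the WT mice (n = 3 each, SD). Zfp36, which encodes an RNA-binding protein that shortens the life of cytokine mRNAs, averaged 107 ± 31.4 CPM in mutant mice and 59.0 ± 7.99 CPM in WT mice. Klf13, a relative of Klf9, was at 148, 205 and 113 CPM in mutant mice 1 to 3, against 52.2, 103 and 69.9 CPM in WT mice 1 to 3.

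The metallothionein gene Mt1, which glucocorticoids and metal ions induce, was at 20.5, 230 and 31.5 CPM in mutant mice 1 to 3, against 2.47, 8.84 and 3.99 CPM in WT mice 1 to 3. Mutant mouse 2 held most of that difference, and every mutant mouse lay above every WT mouse. By mouse, the median deviation of the 31 genes from the WT mean was 0.38, 0.68 and 0.32 log2 units in mutant mice 1 to 3, against values between -0.03 and 0.03 in the 3 WT mice. The median log2 fold change of the 31 genes depended on mutant mouse 2: leaving it out gave 0.29. It was 0.28 once sex was a term and 0.26 in the female mice. The liver targets Tat and Pck1 had 0 counts in all 6 libraries.

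**Figure D5:**
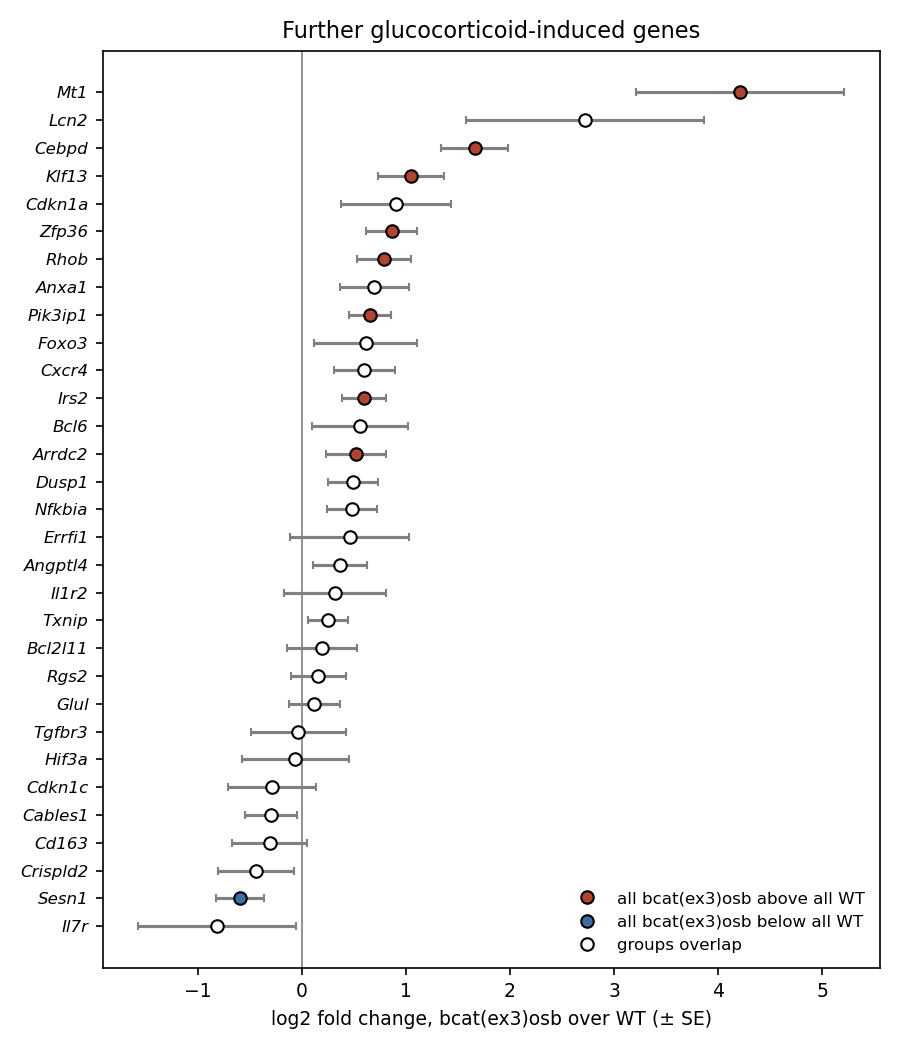
Fitted log2 fold change, bcat(ex3)osb over WT, with its standard error for 31 further glucocorticoid-induced genes, filled where the groups do not overlap. Mt1 at 4.21 and Cebpd at 1.66 have separate groups, Lcn2 at 2.72 has overlapping groups, and Sesn1 at -0.59 is the 1 gene with every bcat(ex3)osb value below every WT value.

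Per1 also belongs to the circadian clock, and most other clock genes had values of the opposite sign. Of 16 tested clock genes, 5 were positive and 11 negative, with a median of -0.26 and 0 past the adjusted threshold. Arntl, which encodes the activator BMAL1, was at 34.5, 14.0 and 27.0 CPM in mutant mice 1 to 3, against 46.9, 56.6 and 66.9 CPM in WT mice 1 to 3. Per3, a relative of Per1, averaged 16.8 ± 4.95 CPM in mutant mice and 28.3 ± 2.28 CPM in the WT mice (n = 3 each, SD). The groups were separate for 4 of the 16, with 3 below in mutant mice and 1 above, beside 7.67% and 6.89% of all genes. Arntl and Per3 were below, as was Rora, an activator of Arntl, at 4.49 ± 2.16 CPM in mutant mice and 8.65 ± 0.879 CPM in WT mice. Csnk1e, a kinase that phosphorylates PER proteins, was above, at 109 ± 28.5 CPM in mutant mice and 78.4 ± 10.5 CPM in WT mice. Clock transcripts cycle over the day, and the part of the hour of sampling in these values was not tested.

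Ddit4 answers to amino acid shortage and to low oxygen as well as to hormone. Of 10 tested genes of the amino acid response, 7 were positive and 3 negative, with a median of 0.14 and 0 past the adjusted threshold. Every mutant value was above every WT value for 2 of the 10, Asns and Slc3a2, beside 6.89% of all genes, and below for 0, beside 7.67%. At an unadjusted p under 0.05 in edgeR's test, 1 of the 10 was higher and 0 lower, beside 3.43% and 3.13% of all genes. Asns, the asparagine synthetase, averaged 31.2 ± 3.03 CPM in mutant mice and 20.5 ± 3.35 CPM in the WT mice (n = 3 each, SD). Of 11 tested hypoxia genes, 7 were positive and 4 negative, with a median of 0.09 and 0 past the threshold. Every mutant value was above every WT value for 3 of the 11, beside 6.89% of all genes, and below for 1, beside 7.67%. At an unadjusted p under 0.05 in edgeR's test, 2 were higher and 0 lower, beside 3.43% and 3.13% of all genes. Egln3, an oxygen-sensing hydroxylase, averaged 51.3 ± 18.0 CPM in mutant mice and 25.6 ± 4.85 CPM in WT mice. Ndrg1 averaged 66.7 ± 21.3 CPM in mutant mice and 35.9 ± 4.58 CPM in WT mice, also with every mutant mouse above. The gene below was P4ha1, a collagen hydroxylase induced by low oxygen, which averaged 35.5 ± 9.52 CPM in mutant mice and 51.4 ± 2.20 CPM in WT mice.

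By summed level, several marker lists, of granulocyte-monocyte progenitors, monocytes, mast cells and megakaryocytes, were higher in the same mice as the 7 genes. Those of B cells and macrophages were lower. By gene, every mutant value was above every WT value for 6 of 6 granulocyte-monocyte progenitor markers and 4 of 6 monocyte markers. The same held for 3 of 5 tested mast cell and basophil markers and 1 of 3 tested megakaryocyte markers, beside 6.89% of all genes. Every mutant value was below for 5 of 6 macrophage and 2 of 6 B cell markers, beside 7.67% of all genes. The 6 markers of granulocyte-monocyte progenitors, none at 0, summed to 6208 to 11200 CPM in mutant mice and 1247 to 3121 CPM in WT mice. The 6 monocyte markers summed to 319 to 579 CPM in mutant mice and 121 to 198 CPM in WT mice, and the 6 markers of mast cells and basophils to 118 to 306 CPM in mutant mice and 14.0 to 65.4 CPM in WT mice. The 8 immediate early genes also respond to cell dissociation. They summed to 475 to 996 CPM in mutant mice and 240 to 301 CPM in WT mice. Of the 7 tested, 7 had a positive log2 fold change, with a median of 1.56, beside 1.18 over the 9 glucocorticoid genes. Every mutant value was above every WT value for 3 of the 7, beside 6.89% of all genes, and below for 0, beside 7.67%. At an unadjusted p under 0.05 in edgeR's test, 6 were higher and 0 lower, beside 3.43% and 3.13% of all genes. At the adjusted threshold 0 were called. The 5 megakaryocyte markers summed to 59.2 to 160 CPM in mutant mice and 42.3 to 50.6 CPM in WT mice. Markers of B cells (6) summed to 66.6 to 316 CPM in mutant mice and 361 to 593 CPM in WT mice. The 6 measured macrophage markers summed to 6.06 to 40.9 CPM in mutant mice, with Cd5l at 0 in all 3, and 45.9 to 76.1 CPM in WT mice. Mature neutrophil markers (6) summed to 34.4 to 129 CPM in mutant mice and 12.8 to 147 CPM in WT mice. Osteoblast and stromal markers (6) summed to 0.452 to 9.37 CPM in mutant mice, with Sp7 and Lepr at 0 in all 3, and 2.54 to 11.8 CPM in WT mice. The 4 measured erythroid markers summed to at most 3.87 CPM in mutant mice and 3.93 CPM in WT mice, with Hba-a1 at 0 in all 6. The part of these cell types, or of an immediate early response, in the differences of the glucocorticoid genes was not tested.

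The genes whose pattern over the 6 mice was most like that of each glucocorticoid gene were found by the root mean square difference of centred log2 CPM, among named genes outside the 9. For Per1 this was Mpo, the myeloperoxidase gene of granulocyte-monocyte progenitors, with a difference of 0.164, while Per1 itself had a root mean square deviation of 0.948. For Klf9 the 3 nearest were Cd200r4 (0.329), Hist1h3e (0.384) and Hist1h1a (0.398), and for Hsd11b1 it was Chst13 (0.445). Fkbp5 was nearest to Max (0.215), Tsc22d3 to Cdk6 (0.103), Ddit4 to Anxa3 (0.127) and Zbtb16 to Card9 (0.220). For the genes with overlapping groups, Nr3c1 was nearest to Ppp2ca (0.0359) and Sgk1 to Sirt4 (0.0572). Within the 9 genes the closest pair was Tsc22d3 and Ddit4 (0.259), followed by Per1 with Ddit4 (0.317) and Per1 with Zbtb16 (0.323). The histone values are uncertain where near-identical copies share reads. With 6 libraries and 12653 genes, some close matches arise for any pattern, so these are descriptions only.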

How the data were processed

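Per the labels' protocols, AllPrep-extracted total RNA was turned into stranded libraries (TruSeq Stranded Total RNA). The build (mm10) and the tools (STAR 2.5.2b, featureCounts 1.5.0-p3, bcl2fastq 2.17) come from the submitters' processing notes. Not given in the sources used here: strand setting, handling of multi-mapped reads, annotation. The authors deposited raw counts per gene and, in a second table, gene length, the same counts and FPKM. Each FPKM equalled the count scaled by length and library total within 0.005.

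The counts were tested with edgeR 4.0.16 (R 4.3.3): filterByExpr by genotype (minimum count 10, minimum total 15), TMM scaling, quasi-likelihood F tests on genotype alone, all 6 libraries, two-sided, Benjamini-Hochberg adjustment over 12653 genes, threshold 0.05. SE came from the F statistic. Log2 CPM used a prior count of 1. Alternatives were other scalings, filters and libraries, DESeq2 1.42.0, limma 3.58.1 (voom, and on log2 FPKM), mouse number as a block, and sex. The members and lists were chosen with earlier results of these data known. Genes named beside the members came from the 4 of each list with the smallest unadjusted p, though not all 4 were named for every list. The nearest gene by pattern was also named (3 for Klf9). Ly6a, Procr, Sesn1, Lcn2, Tat and Pck1 were named after their values were seen. 1 gene of the coregulator list is not reported here. Counting error alone does not cover variation between mice. No exon of another annotated gene (GENCODE M21) overlapped those of the members.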

Additional observations from a re-analysis of the deposited data

How the results depend on the processing

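The direction of each of the 9 genes was the same under all 17 alternatives. Their median log2 fold change, 1.18, ranged from 1.05 to 1.39 when each mouse was left out, with 1.39 both without mutant mouse 2 and without WT mouse 1. The number of genes called over the whole table did depend on the method: edgeR called 0 higher and 0 lower, while DESeq2 called 106 higher and 77 lower (0.778% and 0.565% of its tested genes), Klf9, Hsd11b1, Per1, Ddit4 and Zbtb16 among those higher, with adjusted p of 3.00e-06, 6.79e-05, 0.00014, 0.0207 and 0.0494. When each mouse was left out, edgeR called 0 to 4 genes higher and 0 to 13 lower, with 1 higher and 13 lower without mutant mouse 1, and 4 higher and 2 lower without mutant mouse 3. With the mouse number as a replicate block, 5 genes were called higher and 0 lower, Klf9 among the 5 (adjusted p 0.0359). Whether the numbers pair the mice cannot be decided from 3 mice per genotype. Deviations of same-numbered mice correlated at 0.110, 0.344 and 0.0567, and not every mouse correlated best with its own number. The median of the 31 further genes, an alternative chosen after seeing the data, was 0.48 and moved to 0.28 on log2(FPKM + 1), 0.28 with sex as a term and 0.26 in the female mice, and from 0.29 (without mutant mouse 2) to 0.48 when each mouse was left out. In both settings by sex, mutant mouse 3 is the only mutant mouse that informs the genotype difference. The causes were not tested. Hsd11b1 and Zbtb16 in WT mice rest on 16 to 81 counts, which limits the precision of their fold changes.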

Other observations

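Relatives of the 9 genes did not share one direction. Of 21 tested paralogs, 11 were higher and 10 lower in mutant mice by their fitted value, the median log2 fold change being 0.12, and 0 were past the adjusted threshold by edgeR. Every mutant value was above every WT value for 4 of the 21, beside 6.89% of all genes, and below for 2, beside 7.67%. Klf11, another Krüppel-like factor, averaged 50.8 ± 13.4 CPM in mutant mice and 30.8 ± 2.83 CPM in the WT mice (n = 3 each, SD), with separate groups, a log2 fold change of 0.72 ± 0.24 (SE). Ddit4l, the relative of Ddit4, was at 0.162, 0 and 0.277 CPM in mutant mice 1 to 3, against 1.99, 1.30 and 0.730 CPM in WT mice 1 to 3. It was below in each mutant mouse where Ddit4 was above, though its mutant values rest on few counts.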
